A study of Mus musculus with 2 samples.

Results

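Planar cell polarity genes were read from polyadenylated RNA of embryonic mouse neural tube, collected at day 12.5. The 9 genes are Vangl1, Vangl2, Celsr1, Celsr2, Celsr3, Scrib, Ptk7, Prickle1 and Prickle2. They were chosen by symbol in the GENCODE M21 annotation, from 55536 genes in the deposited gene tables, of which 22028 are protein-coding, and all 9 were measured. The series has 1 group of 2 libraries, with no mutant, treatment or second stage. Replicate 1 was a pool of 120 embryos and replicate 2 a pool of 88 embryos of strain B6NCrl, with the sexes pooled. Each library was made from 10 ng of total RNA by oligo-dT priming and tagmentation, with synthetic ERCC spike-in RNAs added. The tissue was taken whole, so every level is an average over all cells of the sample, and fewer cells of a type cannot be told apart from less RNA per cell.

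Planar cell polarity is the alignment of cells within the plane of an epithelium. In its core system, large multipass cadherins of the Celsr family join the complexes of neighbouring cells. Vangl proteins with the cytoplasmic Prickle proteins gather on one face of the cell, and Frizzled receptors with Dishevelled on the opposite face. In the mouse embryo the pathway drives the narrowing and lengthening of the neural plate before closure, and mutants of Vangl2, Celsr1, Scrib or Ptk7 can leave the neural tube open. After closure, members of the same system act in the guidance of axons and the migration of neurons, where Celsr2, Celsr3, Vangl2 and Fzd3 are best known.

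The libraries held 33529531 and 35461403 estimated counts, of which genes took 97.01% in replicate 1 and 97.11% in replicate 2. Of the 22028 protein-coding genes, 13414 (60.9%) reached at least 1 TPM in both libraries, a length-corrected level scaled to a sum of 1000000 per library, and their median was 21.7 TPM. Progenitor markers such as Fabp7 and neuronal markers such as Tubb3 were present, and 7 of 7 neural progenitor and 7 of 7 neuronal genes were expressed. Genes of other tissues were also present. The 3 erythroid genes, embryonic and other globins, summed to 11846 and 11264 TPM. The summed levels were 731 and 756 TPM for 5 mesenchyme genes, 236 and 167 TPM for 5 skeletal muscle genes, and 34.0 and 33.2 TPM for 5 epidermal and epithelial genes. Their part in the levels below was not tested.

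All 9 genes were expressed, at 1 TPM or more in both libraries, and 5 of them (Celsr2, Ptk7, Vangl2, Scrib and Prickle1) at 10 TPM or more in both. Celsr2 stood highest at 56.1 ± 0.255 TPM (SD, n = 2, as for every mean here). Ptk7 followed at 54.2 ± 1.10 TPM and Vangl2 at 53.3 ± 2.34 TPM, and the ranges of these last genes overlapped. Scrib stood at 36.4 ± 1.53 TPM and Prickle1 at 15.2 ± 0.0919 TPM. Vangl1 at 10.7 ± 1.52 TPM and Celsr3 at 10.4 ± 1.19 TPM overlapped and switched places between the libraries. Prickle2 came next at 8.27 ± 1.34 TPM, and Celsr1 was lowest at 2.86 ± 0.0141 TPM, which puts 19.6-fold between the ends of the order. Among the expressed protein-coding genes the 3 highest members lay between the 74.9th and the 76.1st percentile and Celsr1 at the 9.79th. So 4 of the 9 were above the median expressed gene and 5 below it. The order depended on which transcripts were summed, as the accounts of Celsr2 and Scrib show.

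**Figure D1:**
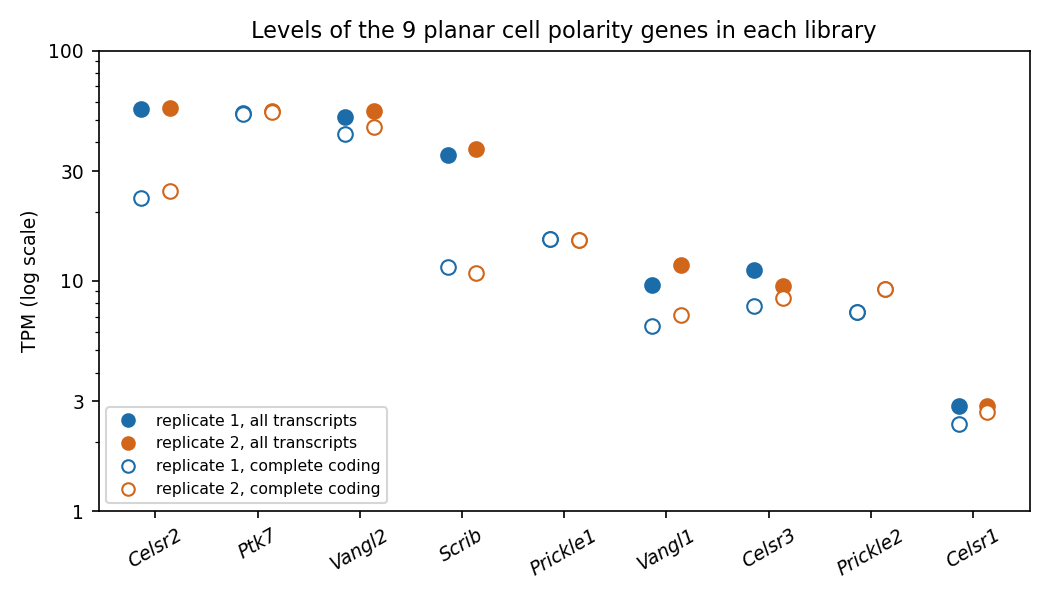
The plot of levels by gene gives TPM on a log axis for each library, replicate 1 in blue and replicate 2 in orange. Filled points sum all transcripts of a gene and open points only transcripts with a complete coding sequence; Celsr2 falls from 56.1 to 23.7 TPM and Scrib from 36.4 to 11.1 TPM between these sums, while Ptk7, Prickle1 and Prickle2 hardly move.

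Vangl2 and Vangl1 encode multipass membrane proteins that recruit Prickle, and Vangl2 is the gene disrupted in the loop-tail mouse. Vangl2 (ENSMUSG00000026556.15; chromosome 1, 172000960 to 172028444, minus strand, mm10) read 51.7 TPM in replicate 1 and 55.0 TPM in replicate 2. Vangl1 (ENSMUSG00000027860.15; chromosome 3, 102153583 to 102204693, minus strand) read 9.63 and 11.8 TPM. Both libraries put Vangl2 well above its paralog, by 2.42 and 2.22 on the log2 scale, or 2.32 ± 0.14 in the mean. Vangl2 thus made up 83.3% ± 1.37 of the TPM of the pair.

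Most of Vangl2 fell on 1 transcript, and the libraries split on a longer coding form. Vangl2-201, which codes for 521 residues, held 81.4% of the gene's TPM in replicate 1 and 73.8% in replicate 2. Vangl2-203 adds a coding exon of 120 bases, a multiple of 3, and codes for 561 residues. It held 1.68% in replicate 1 and 11.1% in replicate 2, from 40.95 and 297 estimated counts. The deposited posterior SD of those counts, a measure of how surely reads were split among transcripts, was 30.2 and 57.7, so the count in replicate 1 was close to its own SD. Incomplete models Vangl2-204 (10.1% and 7.64%) and Vangl2-206 (5.41% and 7.10%) took most of the rest. The models also differ at the 3′ end, where Vangl2-203 stops at base 172004429 and Vangl2-201 runs on to 172000960, so the shares do not rest on the exon alone. The exon is shown as the coding difference between the 2 forms. It lies at chr1:172008799-172008918 (mm10, minus strand, printed 5′ to 3′ as transcribed), in capitals between 15 bases of each neighbouring exon.
Vangl2-203 exon 5: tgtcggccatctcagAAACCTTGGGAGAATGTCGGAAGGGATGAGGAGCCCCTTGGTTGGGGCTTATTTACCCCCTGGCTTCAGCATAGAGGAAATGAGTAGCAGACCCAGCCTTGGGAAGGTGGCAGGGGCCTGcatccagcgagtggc

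Vangl1 was spread over more models. Vangl1-202, coding for 393 residues, held 42.9% and 35.1% of its TPM, and Vangl1-201, coding for 526 residues, held 22.9% and 25.4%. By estimated counts the longer form was as deep or deeper, at 297 against 269 counts in replicate 1 and 417 against 278 in replicate 2. Against release M4 this split was lost: Vangl1-201 was listed at 0 in both libraries, and Vangl1-202 held 83.0% and 80.1% on 493 and 568 counts. Vangl1-205, an incomplete model, held 21.5% and 15.6%. The retained-intron model Vangl1-204 held 12.7% and 5.21%, and Vangl1-203 was listed at 0 in replicate 1 and held 11.7% in replicate 2. On complete coding transcripts alone, Vangl2 exceeded Vangl1 by 2.75 ± 0.04 on the log2 scale.

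The Celsr genes encode the large cadherins that bridge neighbouring cells. Celsr2 (ENSMUSG00000068740.13; chromosome 3, 108390851 to 108415552, minus strand) read 55.9 TPM in replicate 1 and 56.3 TPM in replicate 2. Celsr3 (ENSMUSG00000023473.13; chromosome 9, 108826320 to 108852969, plus strand), known for its part in axon tract formation, read 11.2 and 9.52 TPM. Celsr1 (ENSMUSG00000016028.10; chromosome 15, 85898929 to 86033777, minus strand), the member whose mutation causes the severe neural tube defect of Crash mice, read 2.85 and 2.87 TPM. The 3 genes kept the same order in both libraries and their ranges did not overlap. Of the family's TPM, Celsr2 made up 80.9% ± 1.44, Celsr3 14.9% ± 1.52 and Celsr1 4.13% ± 0.0751. Celsr2 exceeded Celsr1 by 4.29 in each library on the log2 scale, and Celsr3 by 2.32 and 2.56.

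The distance between the Celsr genes shrank when only complete coding transcripts were summed, a scale added after the data were seen. Celsr2-201, the one complete coding model of Celsr2 with 2919 codons, held 40.9% of the gene's TPM in replicate 1 and 43.6% in replicate 2. The same transcript took 82.8% and 85.0% of the gene's estimated counts. Of the rest, Celsr2-206, an incomplete model of 3486 bases, held 20.4% and 18.2% on 810 and 750 counts. Celsr2-205, a processed transcript of 467 bases, held 18.8% and 18.6% of TPM on 81.1 and 83.5 counts, and the retained-intron model Celsr2-203 held 13.8% and 10.3%. On complete coding transcripts Celsr2 exceeded Celsr1 by 3.22 ± 0.05 and Celsr3 by 1.55 ± 0.01 on the log2 scale. Celsr3 exceeded Celsr1 by 1.67 ± 0.05 there, against 1.85 ± 0.17 over all transcripts.

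Celsr3 was carried by a pair of near-identical coding models. Celsr3-201 (3301 codons) held 35.4% and 42.3% of its TPM and Celsr3-207 (3309 codons) 34.1% and 46.0%. They differ in 24 bases, made of an exon of 15 bases and 2 exon ends shifted by 6 and 3 bases. Their posterior SDs ran from 147 to 158 counts on 918 to 1089 counts, so the order of the 2 models was not resolved. The short exon is shown as the larger of these differences. It lies at chr9:108838760-108838774 (mm10, plus strand), in capitals between 15 bases of each neighbouring exon.
Celsr3-207 exon 17: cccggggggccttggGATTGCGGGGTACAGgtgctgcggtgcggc

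The retained-intron model Celsr3-205 held 12.7% of Celsr3 TPM in replicate 1 and 3.40% in replicate 2, and the incomplete model Celsr3-204 held 11.2% in replicate 1 and was listed at 0 in replicate 2. Celsr3-206, another retained-intron model, held 6.58% and 8.32% on 5.31 and 5.9 counts. Celsr1 rested on Celsr1-201 (3034 codons) at 83.9% and 94.0%, with the incomplete Celsr1-203 at 16.1% and 5.96%. Celsr1-203 had 64.3 and 24.9 counts, with posterior SDs of 14.7 and 7.54. By posterior mean TPM the share of Celsr1-201 was lower, at 70.0% and 81.1%.

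Prickle1 and Prickle2 encode cytoplasmic LIM-domain proteins that bind Vangl, and both are also expressed in neurons. Prickle1 (ENSMUSG00000036158.12; chromosome 15, 93499114 to 93595891, minus strand) read 15.3 TPM in replicate 1 and 15.1 TPM in replicate 2. Prickle2 (ENSMUSG00000030020.13; chromosome 6, 92370908 to 92706155, minus strand) read 7.32 and 9.21 TPM. Prickle1 was the higher in both libraries, by 1.06 and 0.72 on the log2 scale. Every model of these genes has a complete coding sequence, so their levels did not change with the choice of transcripts.

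The transcripts of both Prickle genes differ in where they start. Prickle1-201 held 94.96% of Prickle1 TPM in replicate 1 and 88.2% in replicate 2, and Prickle1-202, which starts downstream and codes for the same 832 residues, held 5.04% and 11.8%. Prickle1-202 had 65.2 and 156 counts, and the posterior SDs were 41.0 and 59.1. The promoters of the 2 starts are shown because the start is the difference between the models. Each window runs from 250 bases before to 50 bases after the start in RefSeq on GRCm38.p6 (the assembly of mm10), minus strand, and CpG pairs are in capitals.
Prickle1-201 start, chr15:93595853-93596152: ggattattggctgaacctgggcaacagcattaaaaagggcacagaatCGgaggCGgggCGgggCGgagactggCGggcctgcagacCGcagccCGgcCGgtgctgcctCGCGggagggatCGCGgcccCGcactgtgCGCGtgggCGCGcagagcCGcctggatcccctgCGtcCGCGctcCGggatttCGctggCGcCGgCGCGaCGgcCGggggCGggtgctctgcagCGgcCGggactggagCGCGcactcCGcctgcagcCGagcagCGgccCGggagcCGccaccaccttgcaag
Prickle1-202 start, chr15:93519471-93519770: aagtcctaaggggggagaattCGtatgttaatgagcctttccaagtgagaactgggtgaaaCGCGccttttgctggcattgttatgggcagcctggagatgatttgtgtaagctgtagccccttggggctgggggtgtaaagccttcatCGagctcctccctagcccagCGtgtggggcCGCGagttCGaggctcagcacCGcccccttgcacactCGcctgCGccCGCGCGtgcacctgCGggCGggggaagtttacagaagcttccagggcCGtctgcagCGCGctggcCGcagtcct

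The upstream window has 39 CpG pairs and the downstream one 20, against a median of 7 in 32851 mouse promoter windows of 300 bases. The letters GGGCGG, a GC box, were searched on both strands and occur 3 times upstream and 2 times downstream. Of all 32851 windows, 35.7% hold that motif.

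Prickle2 TPM was spread more evenly over its models than that of Prickle1. Prickle2-201, which starts farthest upstream and codes for 901 residues, held 52.2% of Prickle2 TPM in replicate 1 and 57.7% in replicate 2. Prickle2-202 held 40.0% and 33.8% and Prickle2-203 7.78% and 8.49%, and both code for 845 residues. Prickle2-204, also with 845 codons, was listed at 0 in both, with posterior SDs of 67.2 and 56.1 counts. By counts, Prickle2-201 had 613 and 881 and Prickle2-202 had 221 and 244. The posterior SDs of Prickle2-201 were 85.2 and 83.7 counts, and Prickle2-203 had 92.6 and 131.5 counts with SDs of 54.8 and 62.5. These models also differ at the 3′ end, where Prickle2-202 stops at base 92375384 and Prickle2-201 runs on to 92370908. The shares therefore do not rest on the start alone. The windows of the starts of Prickle2-201 and Prickle2-202 are printed in the same way, for the contrast in CpG content.
Prickle2-201 start, chr6:92706135-92706434: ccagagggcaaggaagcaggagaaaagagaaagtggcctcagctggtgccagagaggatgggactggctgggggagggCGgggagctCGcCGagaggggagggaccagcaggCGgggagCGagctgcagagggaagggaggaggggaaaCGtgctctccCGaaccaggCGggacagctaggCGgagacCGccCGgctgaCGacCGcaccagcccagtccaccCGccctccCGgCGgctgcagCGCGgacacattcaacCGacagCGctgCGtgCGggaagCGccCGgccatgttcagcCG
Prickle2-202 start, chr6:92481343-92481642: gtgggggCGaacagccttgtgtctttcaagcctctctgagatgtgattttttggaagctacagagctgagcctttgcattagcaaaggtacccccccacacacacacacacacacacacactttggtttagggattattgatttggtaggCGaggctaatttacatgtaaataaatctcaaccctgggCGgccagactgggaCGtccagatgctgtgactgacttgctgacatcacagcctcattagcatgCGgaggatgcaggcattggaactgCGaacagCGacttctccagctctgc

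The window of Prickle2-201 has 25 CpG pairs and 3 GC boxes, and that of Prickle2-202 has 7 CpG pairs and 1 GC box. The windows of Prickle2-203 and Prickle2-204 have 5 and 4 CpG pairs. RefSeq windows were found for 6 of the 9 genes, 10 windows in all, and 8 of the 10 hold the GC box; Vangl1, Celsr1 and Scrib had no entry. Ptk7, Vangl2, Celsr2 and Celsr3 had 22, 21, 40 and 25 CpG pairs. The start of the Celsr3 window, at base 108826045, had no M21 transcript start of the gene within 50 bases. Celsr3-201 and Celsr3-207 start at base 108826320, so that window is not matched to a measured transcript. Only the Prickle genes had more than 1 window, so no other member gives a comparison of starts here.

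Scrib encodes a cytoplasmic scaffold with leucine-rich repeats and PDZ domains that binds Vangl2 and also acts in apicobasal polarity; it is the gene disrupted in the circletail mouse. Scrib (ENSMUSG00000022568.17; chromosome 15, 76047158 to 76069784, minus strand) read 35.3 TPM in replicate 1 and 37.5 TPM in replicate 2. Against release M4, which holds 6 of its 12 models and not Scrib-208, it read 23.0 and 24.0 TPM. Its leading model by TPM in M21 was Scrib-208, a retained-intron model of 439 bases, at 26.4% in both libraries on 66.2 and 72.8 counts. Scrib-202 (1612 codons) held 17.2% and 14.7% on 678 and 637 counts, and Scrib-203 (1637 codons) held 15.4% and 14.1% on 620 and 625 counts. Scrib-204, a processed transcript of 3071 bases, held 19.0% and 17.9%. Scrib-207, with a retained intron, held 8.46% and 9.46%, and the incomplete Scrib-205 held 5.69% and 9.70%. Noncoding models together made up 61.8% and 61.5% of Scrib TPM and 30.4% and 32.0% of its counts.

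The detected complete coding forms of Scrib differ by a cassette exon of 75 bases, a multiple of 3, which is in Scrib-203 and not in Scrib-202. Scrib-202 and Scrib-203 were near equal, and their posterior SDs of 103 to 126 counts exceed the gap between them. Scrib-201, the remaining complete coding form, was listed at 0 in both libraries with posterior SDs of 37.1 and 48.2 counts. The starts of Scrib-203 and Scrib-202, at bases 76069784 and 76069754, differ as well. The exon is shown as the coding difference between the 2 detected forms (mm10, minus strand, exon in capitals, 15 bases of each neighbour in lower case), at chr15:76047922-76047996.
Scrib exon of 75 bases: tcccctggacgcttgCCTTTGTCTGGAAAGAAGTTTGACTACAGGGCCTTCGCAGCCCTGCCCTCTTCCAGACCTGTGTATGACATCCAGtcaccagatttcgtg

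Ptk7 encodes a membrane protein with a catalytically inactive tyrosine kinase domain that acts with Vangl2 in neural tube closure. Ptk7 (ENSMUSG00000023972.10; chromosome 17, 46564471 to 46629504, minus strand) read 53.4 TPM in replicate 1 and 55.0 TPM in replicate 2. It was the simplest of the 9 at the transcript level: Ptk7-201, with 1062 codons, held 99.2% and 99.1% of its TPM. Once only complete coding transcripts were summed, Ptk7 at 53.7 TPM stood first, with Vangl2 at 45.3 and Celsr2 at 23.7 TPM behind it and no overlap of their ranges. Prickle1 at 15.2 TPM then stood above Scrib at 11.1 TPM. Prickle2 at 8.26 and Celsr3 at 8.10 TPM overlapped, Vangl1 followed at 6.74 TPM, and Celsr1 stayed last at 2.55 TPM.

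**Figure D2:**
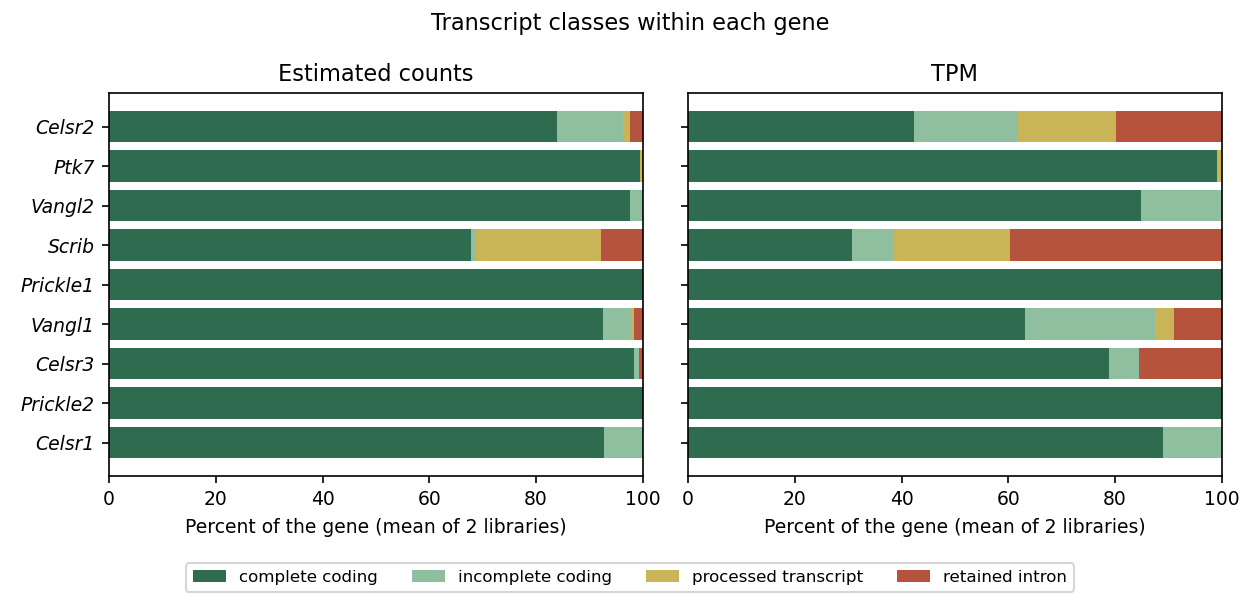
The bars give the share of each transcript class in each gene, in percent and as the mean of the 2 libraries, by estimated counts on the left and by TPM on the right. Complete coding transcripts hold 82.8% and 85.0% of Celsr2 counts in the 2 libraries but 40.9% and 43.6% of its TPM, and Scrib has the largest noncoding share on both scales.

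The 9 genes have 52 transcript models in release M21, of which 20 have a complete coding sequence, 12 an incomplete one and 20 are noncoding. Of the 52, 11 were listed at 0 TPM in both libraries. All 9 gene counts had a posterior SD of 0 in both libraries, which 62.5% of expressed protein-coding genes also had. Within release M21, the uncertainty of assignment of the counts thus lay in the split among transcripts and not in the gene totals. The totals could still change with the release: Vangl1 had 611 and 752 counts in M21 and 513 and 593 in M4. Gene TPM still depends on that split, through the effective length. Genes that overlap the members took almost no reads: the antisense Gm16160 at Vangl1 had 1 and 2 counts, the pseudogene Gm17797 within Prickle2 had 1 and 1, and Gm26904, Gm23156 and Mir6952 had 0, at a floor of 3 counts per library. No strand-specific step is given in the labels, and whether reads from opposite strands were kept apart is not given in the sources used here.

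**Figure D3:**
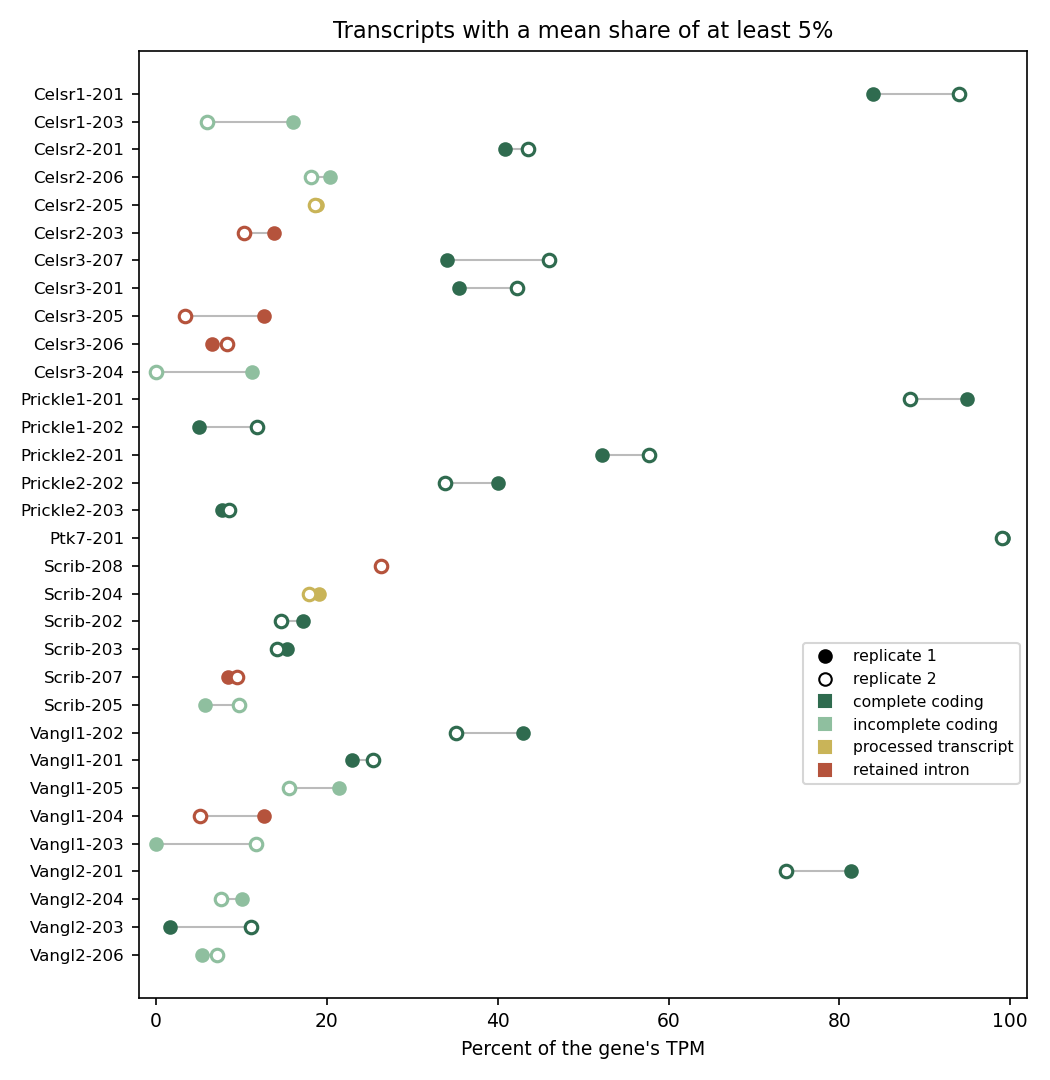
The plot gives the percent of its gene's TPM held by each transcript with a mean share of at least 5%, filled for replicate 1 and open for replicate 2, coloured by class. Long lines mark models whose share differed between libraries, such as Vangl2-203 (1.68% and 11.1%) and Celsr3-204 (11.2% and 0).

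The libraries were then compared with each other, the one comparison the design allows. An exact binomial test of the 2 counts, adjusted by Benjamini-Hochberg over 20125 genes, called 2 of the 9 members, both higher in replicate 2, and none lower. The same test called 20.3% of all genes tested, 10.5% higher and 9.78% lower, and 29.9% of genes that reached 500 counts in 1 or both libraries, a depth that all members had, so 2 of 9 is near the background. Such p-values reflect counting error alone and say nothing of how further pools of embryos would vary. For Prickle2 the libraries held 927 and 1256 counts, a log2 ratio of 0.35 (95% interval 0.23 to 0.47, adjusted p = 6.64e-07 by the exact binomial test). Vangl1 had 611 and 752 counts, a log2 ratio of 0.21 (0.05 to 0.37, adjusted p = 0.0417 by the same exact test), close to the threshold of 0.05. It lost the call against the older annotation release M4, where its counts were 513 and 593 and the log2 ratio 0.11 (adjusted p = 0.385, exact binomial test).

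For the other 7 members the log2 ratio lay between -0.08 (Scrib) and 0.04 (Celsr3), and no bound of their intervals was farther from 0 than 0.19. The median over the members was 0.02, against 0.00 over all genes tested. The exact test of edgeR used a common dispersion (a biological coefficient of variation of 7.36%) estimated from these same 2 libraries as 1 group. The difference under test is then part of the spread, so the test leans towards no call. It called 0 members and 1.13% of all genes, and 1 member had an unadjusted p under 0.05. The adjusted p of Prickle2 was then 0.541. Scaling by the spike-ins raised the share of called genes that were higher in replicate 2 from 51.8% to 76.9% over all genes. On that scale Celsr2 was called too, with a log2 ratio of 0.08 and 3 members called in all.

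Counts and TPM did not always point the same way. Celsr3 had a TPM ratio of -0.23 on the log2 scale, while its count ratio was 0.04 and the ratio of its complete coding TPM was 0.11. The effective length of Celsr3, by which the count is divided to give TPM, was 8196 bases in replicate 1 and 10161 in replicate 2, 24.0% longer. The short models Celsr3-204 and Celsr3-205 held less of its TPM in replicate 2. Celsr3-204 rested on 34.6 and 0 counts (posterior SDs 14.7 and 7.15) and Celsr3-205 on 12.6 and 2.98, of 1922 and 2096 counts of the gene. Vangl2 and Scrib had TPM ratios of 0.09 against count ratios of -0.04 and -0.08, and their effective lengths differed by -6.09% and -8.48% in replicate 2. None of these 3 genes was called.

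**Figure D4:**
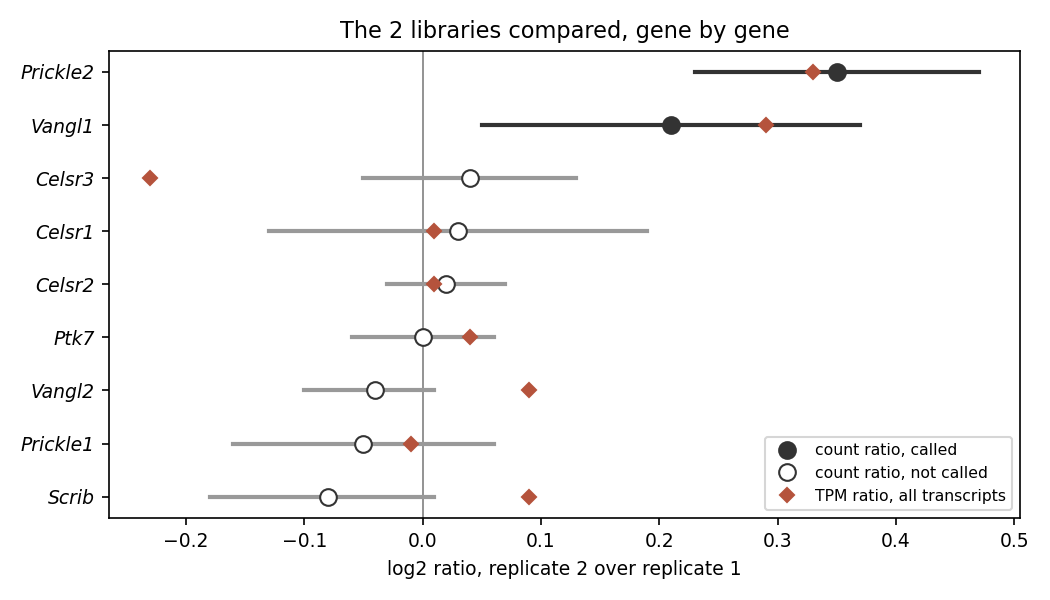
The plot sets the log2 ratio of replicate 2 over replicate 1 for each member on the x axis, with circles for the scaled counts, bars for the 95% interval of counting error and diamonds for gene TPM. Prickle2 at 0.35 and Vangl1 at 0.21 are the filled, called points; the diamond of Celsr3 at -0.23 lies outside its count interval of -0.05 to 0.13.

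Other genes of the pathway were read from a list of 54 genes in 9 roles, and 52 of them were expressed, with a median of 14.9 TPM. Of the 54, 11 were called higher in replicate 2, 8 lower and 35 were not called, which is 35.2% against 20.3% of all genes and 29.9% of genes with at least 500 counts. Their median log2 ratio was 0.03, and edgeR's exact test called 0 of them, with 4 at an unadjusted p under 0.05. Scaled by the spike-ins, 15 were called higher and 6 lower. In the paragraphs below levels are in TPM, while calls and log2 ratios are from counts, and these can differ. Cobl, for example, had 277 and 333 counts (log2 ratio 0.18) although its TPM was lower in replicate 2. Dlg4 had 1215 and 1168 counts (-0.15) although its TPM was higher there, and neither gene was called. For Wnt5a and Fzd3 the TPM fell further than the counts.

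Among the ligands and co-receptors, Cthrc1, a secreted protein that favours Wnt signalling through this pathway, read 81.5 and 70.7 TPM. Ryk, a Wnt receptor, read 15.7 and 15.6 TPM, and Ror1, a receptor tyrosine kinase for Wnt5a, was lowest at 3.36 and 4.44 TPM. Wnt5a, the best-known ligand of the pathway, read 18.9 TPM in replicate 1 and 11.7 TPM in replicate 2. It was called lower in replicate 2 by a log2 ratio of -0.41 (adjusted p = 2.65e-11 by the exact binomial test), as were Wnt5b at -0.44 and Cthrc1 at -0.25, while Ror1 was called higher at 0.36. So 3 of these 8 genes were lower, 1 higher and 4 not called.

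All 5 Frizzled receptors were expressed. Fzd3, the Frizzled of axon guidance, read 39.5 and 29.2 TPM, Fzd2 34.4 and 30.2, Fzd1 16.6 and 17.5, and Fzd6, which acts with Fzd3 in closure, was lowest at 8.73 and 9.21 TPM. Fzd2 and Fzd3 were called lower in replicate 2, at -0.23 and -0.20, and 3 were not called. Of the cytoplasmic partners, the Dishevelled genes Dvl3 (37.8 and 43.3 TPM), Dvl2 (31.9 and 30.8) and Dvl1 (20.5 and 25.4) were all above 20 TPM. A further Prickle gene, Prickle4, stood at 0.67 and 1.01 TPM and did not count as expressed. Of these 6 genes 3 were higher, Dvl1 and Dvl3 among them, and none was lower. The other 3, Dvl2 among them, were not called.

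In the Fat and Dachsous system, a parallel polarity pathway of giant cadherins, Fjx1 read 37.0 and 41.4 TPM, Dchs1 16.1 and 16.1, Fat4 10.2 and 9.54, and Dchs2 0.78 and 0.84 TPM. At the cilium base, Fuz read 13.9 and 15.04 TPM, Wdpcp 8.80 and 8.98, and Intu 3.32 and 4.05, and none of the 3 was called. The cytoskeletal effectors held the highest levels of the list, with the small GTPase genes Rac1 at 321 and 356 TPM and Rhoa at 284 and 247 TPM. Mapk9, a Jun kinase gene, read 40.8 and 46.3 TPM, and the formin gene Daam2 was lowest at 4.47 and 5.12 TPM. Rhoa (-0.24) and Mapk8 (-0.17) were called lower, and Mapk9 (0.17) and Rac1 (0.10) were called higher.

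Of the trafficking and turnover genes, Gipc1, whose product carries Vangl2 on endosomes, read 146 and 144 TPM, and Sec24b, needed for the exit of Vangl2 from the endoplasmic reticulum, read 25.8 and 27.6 TPM. Smurf1 and Smurf2, ubiquitin ligases for Prickle, read 20.8 and 23.9 and 14.3 and 13.0 TPM. Around Scrib, the apicobasal partner Llgl1 read 78.1 and 79.7 TPM, above Arhgef7, an exchange factor that binds Scrib, at 61.9 and 66.0, Dlg4 at 18.5 and 20.1 and Llgl2, the lowest, at 3.05 and 4.46 TPM. Dlg5 was called higher at 0.30, and of the 12 genes of this group 2 were higher and 10 not called. Among other closure genes, Dact1, which binds Dishevelled, read 37.2 and 38.8 TPM, the actin nucleator gene Cobl 4.93 and 3.82, Shroom3 3.68 and 4.92 and the transcription factor gene Grhl3 1.42 and 1.48 TPM, and Shroom3, which constricts the apical side of cells, was called higher at 0.34.

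**Figure D5:**
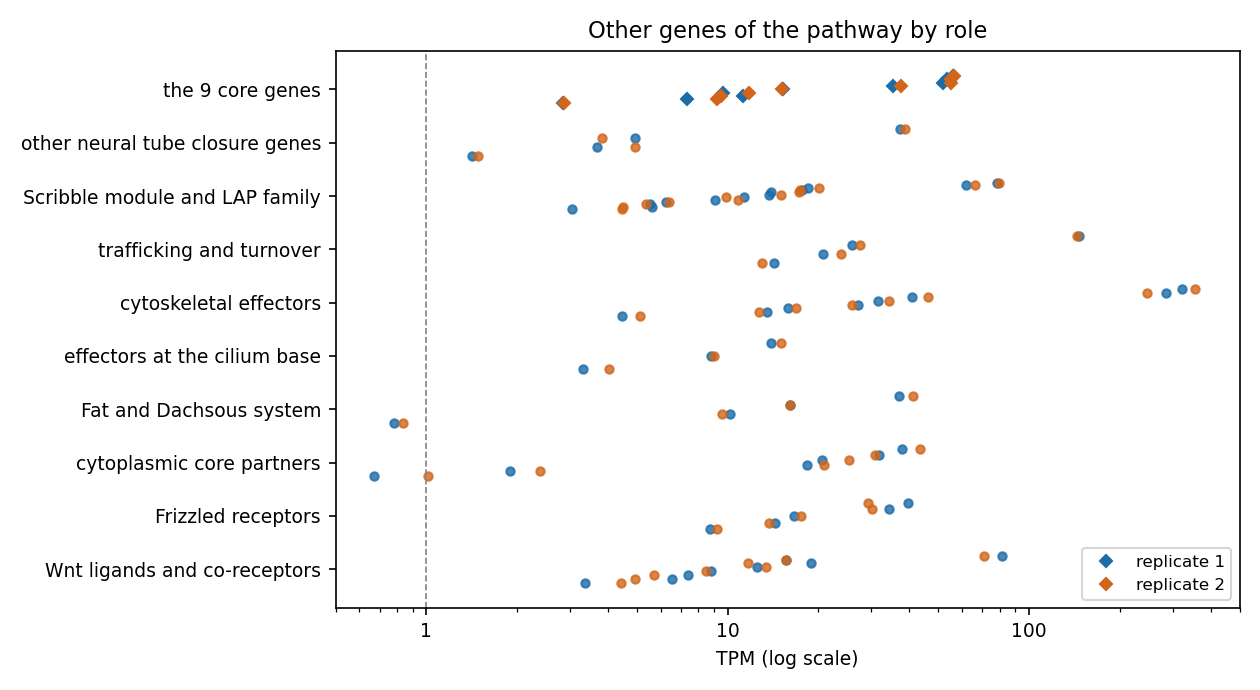
The plot gives TPM on a log axis for the 54 other pathway genes by role, circles, and for the 9 core genes, diamonds, in blue for replicate 1 and orange for replicate 2. The dashed line is 1 TPM, below which Prickle4 in replicate 1 and Dchs2 in both libraries lie, and Rac1 and Rhoa are farthest to the right.

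Some marker lists, of cell types of the neural tube and of other tissues, also differed between the libraries, and their part in the ratios above was not tested. For 3 sensory ganglion genes the sums were 35.7 and 56.0 TPM, a log2 ratio of 0.65 with 3 of 3 called higher. Prdm12 was highest and alone held 29.2 and 42.8 TPM of these sums. The 5 skeletal muscle genes summed to 236 and 167 TPM, a ratio of -0.50 with 5 of 5 called lower. The 3 roof plate genes summed to 32.3 and 42.0 TPM, a ratio of 0.38, with 1 of 3 called higher. Msx1 alone held 30.33 and 39.85 TPM of these sums, and Gdf7 stood at 0.33 and 0.31 TPM, so the ratio is mostly that of Msx1. The 7 neuronal genes had a ratio of 0.14, with 3 called higher and 1 lower. The lists for progenitors, mesenchyme, endothelium, floor plate, macrophages, erythroid cells and epidermis lay between -0.07 and 0.08. Among them, 3 of 3 erythroid genes were called lower and 2 of 4 endothelial genes higher. Of 7 progenitor genes 1 was higher and 2 lower, of 3 floor plate genes 1 was higher, and of 5 mesenchyme genes 1 was lower. No macrophage or epidermal gene was called. The same test called 20.3% of all genes and 29.9% of those with at least 500 counts. No listed marker was at 0 in either library.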

How the data were processed

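Polyadenylated RNA of 2 neural tube libraries of 1 group was used. Per the labels, no strand-specific step is named, and the assembly is mm10. The authors deposited gene and transcript tables against GENCODE M21 and M4 with estimated counts, TPM and, per transcript, the percent it holds of the gene's TPM. Aligner and quantifier: not given in the sources used here. The M21 tables were used, and names, coordinates and transcript types came from GENCODE M21. Expressed means 1 TPM or more in each library. A complete coding transcript is a protein-coding model with neither end marked incomplete.

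The deposited estimated counts were rounded and scaled by TMM (edgeR 4.0.16, R 4.3.3); genes reaching 10 counts in 1 or both libraries were tested by a two-sided exact binomial test (scipy 1.17.1, Python 3.11.15), Benjamini-Hochberg adjusted at 0.05 over all genes, with a prior count of 2 in the log2 ratio. Intervals are Clopper-Pearson, 95%, for counting error only; PCR copies count as reads. The edgeR exact test at a common dispersion from an intercept-only model and DESeq2 1.42.0 size factors were alternatives. The exact binomial test was checked on simulated counts with known folds, in which counting error was the only noise. A count of 0 allows up to 3 counts.

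The members, lists and tests were chosen with earlier results of these data known. Named are all members, their transcripts with a mean share of at least 5%, the 3 highest and 1 lowest pathway genes of each role, up to 10 called pathway genes with the largest ratios, and the highest gene of each marker list where given. Scrib-201, Prickle2-204 and genes overlapping a member were added for their structure. No genes of like pattern are named, since 2 libraries of 1 group give no pattern. One marker gene and one exon are not reported here.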

Additional observations from a re-analysis of the deposited data

How the results depend on the processing

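The counts of expressed genes kept within 1.5 times under all 5 alternatives each. The 2 members called between libraries became 1 with no filter on low counts, 1 with the M4 tables and 0 with edgeR's exact test, which also called 0 in place of 19 pathway genes. With that test the log2 ratios were 0.21 for Vangl1 (adjusted p = 1 in edgeR's exact test) and 0.35 for Prickle2 (adjusted p = 0.541), and with M4 that of Vangl1 was 0.11; spike-in scaling added Celsr2 at 0.08. By gene TPM the ratios of Vangl2, Celsr3 and Scrib were 0.09, -0.23 and 0.09, and by complete coding TPM those of Vangl2 and Celsr2 were both 0.10. With M4 the log2 ratios of Vangl2 to Vangl1, Celsr2 to Celsr1, Celsr3 to Celsr1 and Celsr2 to Celsr3 were 2.51, 4.40, 2.29 and 2.11, with complete coding transcripts 2.75, 3.22, 1.67 and 1.55, and with posterior mean TPM that of Celsr2 to Celsr1 was 4.09; no paralog ratio changed sign. Scrib fell from 36.4 to 23.5 TPM in M4, which holds 6 of its 12 models, while Celsr3 stood at 13.8 against 10.4 TPM. The share of Vangl1-202 in Vangl1 was 81.5% in M4 against 39.0%. The cause was not tested. Leaving out a library leaves the other library's value, given in the text. No paired analysis was possible because the series has 1 group. The level of Celsr1 rests on 605 and 656 counts, the fewest of the 9.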
